A study of Mus musculus with 37 samples.

Results

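The 44 genes described here encode proteins of the synaptic vesicle, of the SNARE complex and its regulators, and of the presynaptic active zone. They were taken by name, not by any measured value, from the 48795 genes of the count table, with symbols from the GENCODE M21 annotation, and each symbol matched a single Ensembl gene. RNA-seq measured them in the hippocampus of 3 Kdm1a-ifKO mice and 3 control littermates, all male and on a C57BL/6J background, with 1 library per mouse. Kdm1a-ifKO mice carried a Camk2a-creERT2 transgene, in which the Camk2a promoter drives the recombinase in principal neurons of the forebrain, and floxed Kdm1a alleles with loxP sites around exons 5 and 6. Controls were littermates without the recombinase. Tamoxifen was given to both genotypes, starting at 8 weeks of age, and the age at RNA collection is not given in the sources used here. The comparison asked whether these genes, part of the core programme of neurons, kept their expression after the loss of the H3K4 demethylase Kdm1a. The tissue was whole hippocampus, so that interneurons and glia, in which this driver is not active, contributed RNA to every library.

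Neurotransmitter release depends on vesicles that are filled, docked at the active zone and primed before calcium enters the terminal. Synaptobrevin (Vamp1 or Vamp2) on the vesicle and syntaxin (Stx1a) and Snap25 on the plasma membrane form the SNARE complex, complexins hold it ready, synaptotagmins sense calcium, and Nsf takes the complex apart after fusion. Large scaffolds (Bsn, Pclo, Rims1) and priming factors (Unc13a) set where this happens. The hippocampus is a classical tissue for the study of these proteins, and its pyramidal and granule cells express many paralogs side by side.

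The libraries held between 18985542 and 19469947 counts and TMM factors lay between 0.981 and 1.01. Kdm1a, the targeted gene, stood at 79.5, 81.1 and 79.6 CPM (counts scaled to TMM-normalized library sizes) in controls. The Kdm1a-ifKO libraries had 39.3, 36.9 and 38.4 CPM, giving a log2FC of -1.07 (standard error 0.056, 95% interval -1.19 to -0.95, edgeR adjusted p = 6.24e-08). The second principal component of the log2 CPM values, with 17.4% of the variance, separated 2 libraries, the third control and the second Kdm1a-ifKO, from the rest. Excitatory neuron markers (Camk2a, Slc17a7, Nrgn and 3 others) summed to 7334 to 7804 CPM in controls and 7179 to 7968 CPM in Kdm1a-ifKOs. The largest part of this sum was Camk2a (control mean 4642 CPM), so the sum says little about the less abundant markers. None of the listed markers of cell types and regions had a count of 0 in any library. The lowest count of a member gene in a library was 43 and the highest 40753. Together the 44 genes took 1.89% ± 0.040 (SD, n = 3) of the counts in controls and 1.83% ± 0.033 (SD, n = 3) in Kdm1a-ifKOs.

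Promoter sequences were available for 31 of the 44 genes in RefSeq (GRCm38.p6), each from 250 bases before to 50 bases after a gene start. No entry was found for Syn3, Syt4, Syt5, Syt7, Syt12, Syt13, Syt17, Snap25, Vamp2, Rims2, Rims4, Doc2a and Doc2b. The windows were searched on both strands for TTCAGCACC, the left arm of RE1, the element bound by the repressor REST, whose complexes contain Kdm1a. The letters occurred at Syn1 and Unc13a, 2 of the 31 genes. They occurred at 63 of the 11984 tested genes with an entry (0.526%) and at 117 of all 27025 genes with an entry (0.433%). In Syn1 they began at base 19 of the 300 and in Unc13a, on the reverse strand, at base 273. The full RE1 motif occurred at 0 of the 31 genes. It occurred at 12 of the 11984 tested genes with an entry (0.100%) and at 21 of all 27025. The member promoters had a median GC content of 62.7% and a median CpG ratio (observed over expected) of 0.710, against 60.7% and 0.741 for the 11984 tested genes with an entry. Both promoters with the letters are shown, with the letters in capitals, beside those of Rab3c and Baiap3, which lack them and belong to the release genes with the largest called decrease and increase. All 4 genes lie on the minus strand, and the sequences are written 5′ to 3′ along the gene, Syn1 from chrX:20920869-20921168, Unc13a from chr8:71671708-71672007, Rab3c from chr13:110280157-110280456 and Baiap3 from chr17:25256315-25256614. The match is a description of these windows and not of binding.
Syn1: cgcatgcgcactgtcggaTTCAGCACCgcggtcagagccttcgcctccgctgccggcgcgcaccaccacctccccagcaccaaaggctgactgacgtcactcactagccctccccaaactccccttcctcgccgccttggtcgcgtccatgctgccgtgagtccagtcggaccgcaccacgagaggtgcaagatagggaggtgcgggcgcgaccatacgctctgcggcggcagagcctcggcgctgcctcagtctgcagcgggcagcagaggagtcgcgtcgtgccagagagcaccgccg
Unc13a: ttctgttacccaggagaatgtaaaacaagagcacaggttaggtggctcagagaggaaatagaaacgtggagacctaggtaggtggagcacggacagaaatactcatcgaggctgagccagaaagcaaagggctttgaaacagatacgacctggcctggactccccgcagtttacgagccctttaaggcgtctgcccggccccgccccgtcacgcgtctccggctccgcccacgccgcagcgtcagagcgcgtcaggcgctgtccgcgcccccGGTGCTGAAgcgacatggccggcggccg
Rab3c: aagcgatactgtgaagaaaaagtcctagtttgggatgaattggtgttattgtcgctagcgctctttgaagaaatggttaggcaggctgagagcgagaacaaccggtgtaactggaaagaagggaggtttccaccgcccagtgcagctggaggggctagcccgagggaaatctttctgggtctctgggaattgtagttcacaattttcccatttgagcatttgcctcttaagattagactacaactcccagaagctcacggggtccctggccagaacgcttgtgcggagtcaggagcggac
Baiap3: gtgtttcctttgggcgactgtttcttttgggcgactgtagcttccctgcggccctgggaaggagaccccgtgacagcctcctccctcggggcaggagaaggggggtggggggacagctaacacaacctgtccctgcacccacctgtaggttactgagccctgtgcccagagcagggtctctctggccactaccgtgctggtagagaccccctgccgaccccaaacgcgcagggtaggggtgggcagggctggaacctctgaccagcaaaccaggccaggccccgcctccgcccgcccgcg

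In control hippocampi the 44 genes spanned from 1358 ± 24.6 TPM (SD, n = 3) for Cplx2 to 3.41 ± 0.428 TPM (SD, n = 3) for Syn3, on the TPM scale (counts per summed exon length, scaled to the same total in each library). Cplx2, a complexin of glutamatergic terminals, was followed by Snap25 at 1245 ± 9.76 TPM, with no overlap between their control libraries. Their order rests on the summed exon lengths, 4.93 kb for Cplx2 and 6.79 kb for Snap25. Without division by length Snap25 was the higher, at a control mean of 2127 CPM against 1684 CPM. Dnm1, the dynamin that pinches off retrieved vesicles, then stood at 1134 ± 58.9 TPM, Vamp2 at 1059.8 ± 59.9 TPM and Cplx1 at 1040.0 ± 36.0 TPM. The control libraries of Dnm1 and Vamp2 overlapped, as did those of Vamp2 and Cplx1, so that their order was not resolved. Rab3a (891 ± 48.4 TPM), the GTPase of vesicle docking, and Syt1 (821 ± 23.2 TPM), the calcium sensor of fast release, came next. The lower end held Unc13c, at 10.0 ± 2.92 TPM in controls, and under it Cplx3, Syt9, Doc2a, Syt6 and Syn3. The genes were more abundant and longer than most, with a median of 169 CPM over the 6 libraries against 18.6 CPM for all 16799 tested genes, and a median summed exon length of 5.68 kb against 4.11 kb.

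**Figure D1:**
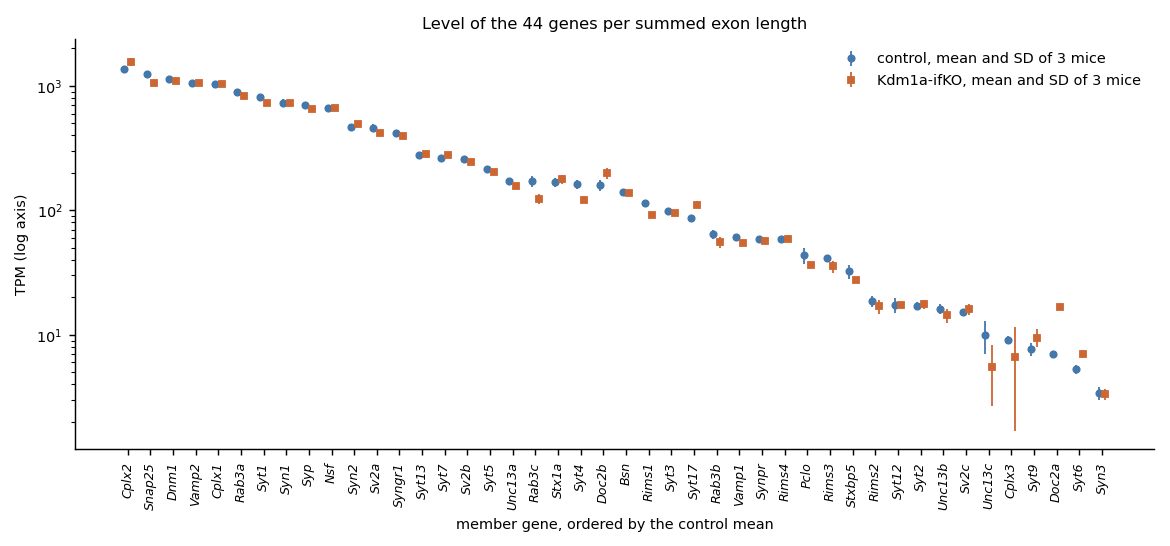
Level of each of the 44 genes in TPM on a log axis, ordered by the control mean, with points and bars for the mean and SD of 3 control (circles) and 3 Kdm1a-ifKO (squares) mice. The order runs from Cplx2 to Syn3, and Doc2a moves from 6.96 to 16.8 TPM.

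Against this order of levels, the genotypes differed little for most genes. In whole tissue, fewer cells of a type and less RNA per cell cannot be told apart. All 44 genes passed the filter on low counts and were tested. Of them, 3 were higher in Kdm1a-ifKOs at an edgeR adjusted p under 0.05 (Doc2a, Syt17 and Syt6) and 6 were lower (Rab3c, Syt4, Rims1, Snap25, Vamp1 and Syt1). Among all tested genes 6.04% were called higher and 2.82% lower. To compare genes of like abundance, the 33 members at or above their own lower quartile of 68.4 CPM were also counted. There, 1 was called higher and 6 lower, where 5.35% and 6.32% of the 3512 tested genes above that level were called. The median log2FC of the members was -0.051, against -0.0034 for all tested genes, and 31 of 44 values were negative. In 13 members all Kdm1a-ifKO libraries lay below all control libraries and in 5 they lay above, shares that were 14.4% and 15.7% over all tested genes.

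The size of a possible change was bounded for most members. The whole 95% interval of the log2FC lay within 1.5-fold in either direction for 38 of 44 genes, Syt1, Snap25, Syt4, Rims1, Vamp1 and Syt17 among them. This held for 69.8% of all tested genes, and for 32 of the 33 abundant members beside 97.2% of the tested genes above 68.4 CPM. The 6 genes with wider or larger values were Doc2a, Syt6, Syt9, Rab3c, Cplx3 and Unc13c. The calls depended in part on the processing. With offsets for gene length and GC content 15 members were lower and 3 higher, and the median of the members was -0.15 against -0.035 for all genes. In that fit 1212 of all 16799 tested genes were lower and 874 higher, against 473 and 1014 without the offsets. The added calls were decreases of Syn1, Syngr1, Sv2a, Syt3, Syt5, Vamp2, Cplx1, Unc13a, Rims3, Rab3a, Rab3b and Dnm1, while Syt1, Snap25 and Vamp1 lost theirs. Upper-quartile normalization gave 5 higher and 4 lower (1213 and 360 of 16799 tested genes). Without both libraries that stood apart, 4 were higher and 11 lower (1039 and 560 of 16851 tested genes), and without Kdm1a-ifKO replicate 3 alone 2 were higher and 3 lower (646 and 137 of 17099 tested genes). Doc2a, Syt17, Rab3c, Syt4 and Rims1 kept their call in each of the 15 alternatives tried, whereas Syt6, Snap25, Vamp1 and Syt1 lost it in at least 1.

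**Figure D2:**
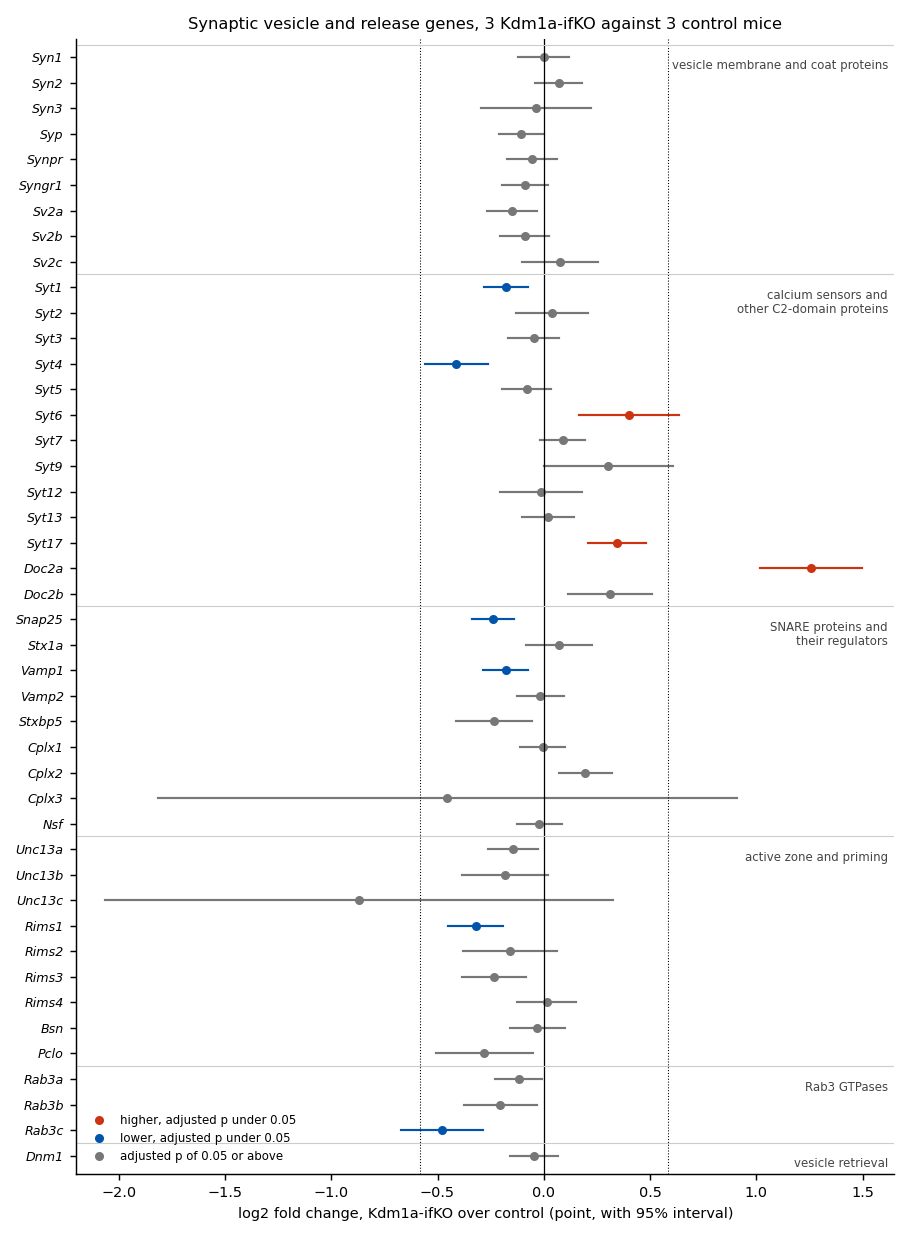
The log2FC of each of the 44 genes (Kdm1a-ifKO over control, x axis) with its 95% interval from the edgeR fit, in blocks by role, with dotted lines at 1.5-fold in either direction. The 3 genes called higher and the 6 called lower are coloured, and 38 intervals lie between the dotted lines.

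The proteins of the vesicle membrane and its coat held no call, and all 9 intervals lay within 1.5-fold. Syn1, a synapsin that tethers vesicles to the cytoskeleton and a gene used as a neuronal marker, was at 646, 606 and 573 CPM in control replicates 1 to 3 and 631, 581 and 612 CPM in Kdm1a-ifKO replicates 1 to 3. The groups overlapped, with a log2FC of -0.00042 (standard error 0.056, 95% interval -0.12 to 0.12, edgeR adjusted p = 0.998). Syn2 had a log2FC of 0.07 and Syn3 of -0.037, and the share of Syn1 in the summed TPM of the 3 synapsins was 60.8% ± 0.956 (SD, n = 3) in controls and 59.7% ± 0.290 (SD, n = 3) in Kdm1a-ifKOs. Synaptophysin (Syp), the classical vesicle protein, was at 969, 918 and 886 CPM in control replicates 1 to 3 and 865, 851 and 859 CPM in Kdm1a-ifKO replicates 1 to 3. Every Kdm1a-ifKO library was below every control library, by a log2FC of -0.11 that did not pass the test (edgeR adjusted p = 0.203). The lowest and highest log2FC of these genes belonged to 2 glycoproteins of the Sv2 family, which act in vesicle priming. Sv2a had a log2FC of -0.15 (standard error 0.054, 95% interval -0.27 to -0.034, edgeR adjusted p = 0.104), with all Kdm1a-ifKO libraries below the controls, and Sv2c a log2FC of 0.077 (standard error 0.082, 95% interval -0.10 to 0.25, edgeR adjusted p = 0.617), with overlap. With the offsets for length and GC content Syn1 (log2FC -0.22, adjusted p = 0.0103), Sv2a (log2FC -0.27, adjusted p = 0.00161) and Syngr1 (log2FC -0.25, adjusted p = 0.00323) were called lower.

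The largest change among the 44 genes was that of Doc2a (ENSMUSG00000052301, chr7:126847416-126852705), a soluble C2-domain protein with high affinity for calcium that is known for asynchronous and spontaneous release at excitatory synapses. Its counts were 92, 98 and 89 in control replicates 1 to 3 and 232, 236 and 222 in Kdm1a-ifKO replicates 1 to 3. On the CPM scale these were 4.81, 5.15 and 4.78 and 11.9, 12.0 and 11.4. The replicates of each genotype lay close together and far from the other genotype. Doc2a rose 2.39-fold, with a log2FC of 1.26 (standard error 0.111, 95% interval 1.02 to 1.499, edgeR adjusted p = 8.45e-06), and its log2FC ranged from 0.98 to 1.29 over the alternatives. Per length it went from 6.96 ± 0.288 TPM to 16.8 ± 0.534 TPM (SD, n = 3 each), so that it stayed well under its paralog Doc2b. Doc2b was at 193, 168 and 162 CPM in control replicates 1 to 3 and 234, 189.8 and 225 CPM in Kdm1a-ifKO replicates 1 to 3. The values of Doc2b overlapped, and the log2FC of 0.31 did not pass (edgeR adjusted p = 0.0616), although it did with DESeq2 (adjusted p = 0.00606). The share of Doc2a in the summed TPM of both genes was 3.74, 4.54 and 4.38% in the controls and 7.34, 8.94 and 7.30% in the Kdm1a-ifKOs. Doc2a, one of 16 members that overlap exons of another gene, shares sequence with Ino80e on the opposite strand, and the strand setting of the counting is not given in the sources used here. Ino80e itself was at 29.2, 26.3 and 26.0 CPM in controls and 28.0, 29.0 and 31.0 CPM in Kdm1a-ifKOs (log2FC 0.11, edgeR adjusted p = 0.383).

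Of the 11 synaptotagmins, 2 were higher, 2 were lower and 7 had no call. Syt17 (ENSMUSG00000058420, chr7:118380717-118448222), a synaptotagmin that does not bind calcium in the usual way and has been placed on the Golgi and on early endosomes, was at 117, 119 and 107 CPM in control replicates 1 to 3 and 157, 136 and 142 CPM in Kdm1a-ifKO replicates 1 to 3. No library of 1 genotype reached the range of the other, and Syt17 rose with a log2FC of 0.34 (standard error 0.063, 95% interval 0.21 to 0.48, edgeR adjusted p = 0.00426). Syt6 was at 8.31, 7.82 and 7.09 CPM in control replicates 1 to 3 and 10.1, 10.2 and 10.4 CPM in Kdm1a-ifKO replicates 1 to 3, again without overlap. It rose with a log2FC of 0.40 (standard error 0.109, 95% interval 0.17 to 0.64, edgeR adjusted p = 0.0374). This call was lost with DESeq2 (log2FC 0.40, adjusted p = 0.104) and when any of 5 of the 6 libraries was left out, control replicate 1 being the exception, with adjusted p-values of up to 0.124. Syt6 overlaps the pseudogene Atg4a-ps, which had under 1 CPM in every library.

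In the other direction, Syt4 (ENSMUSG00000024261), an atypical synaptotagmin of dense-core vesicles and of the postsynaptic side, was at 142, 164 and 169 CPM in control replicates 1 to 3 and 118, 126 and 114 CPM in Kdm1a-ifKO replicates 1 to 3. All Kdm1a-ifKO values were below the controls, and Syt4 fell with a log2FC of -0.41 (standard error 0.068, 95% interval -0.56 to -0.26, edgeR adjusted p = 0.00211). Syt1, the main calcium sensor of synchronous release, was at 1659.9, 1748 and 1761 CPM in control replicates 1 to 3 and 1554, 1537 and 1477 CPM in Kdm1a-ifKO replicates 1 to 3. The decrease was small and free of overlap, with a log2FC of -0.18 (standard error 0.048, 95% interval -0.28 to -0.074, edgeR adjusted p = 0.0362). It was not called with offsets for length and GC content (log2FC -0.082, adjusted p = 0.352) or with upper-quartile normalization (log2FC -0.15, adjusted p = 0.0753). The replicate number as a block also lost the call (log2FC -0.18, adjusted p = 0.102). So did leaving out any 1 library except control replicate 1 (highest adjusted p = 0.194). The share of Syt1 in the TPM of the 11 synaptotagmins was 40.8, 41.3 and 42.9% in controls and 38.8, 39.7 and 38.1% in Kdm1a-ifKOs. Syt7, a slow calcium sensor of facilitation, had a log2FC of 0.089 (interval -0.017 to 0.20), and its share was 13.9, 13.3 and 12.8% and 14.9, 14.8 and 15.3%. Syt2, Syt3, Syt5, Syt9, Syt12 and Syt13 had log2FC values from -0.081 to 0.30, and the groups overlapped for each of them.

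**Figure D3:**
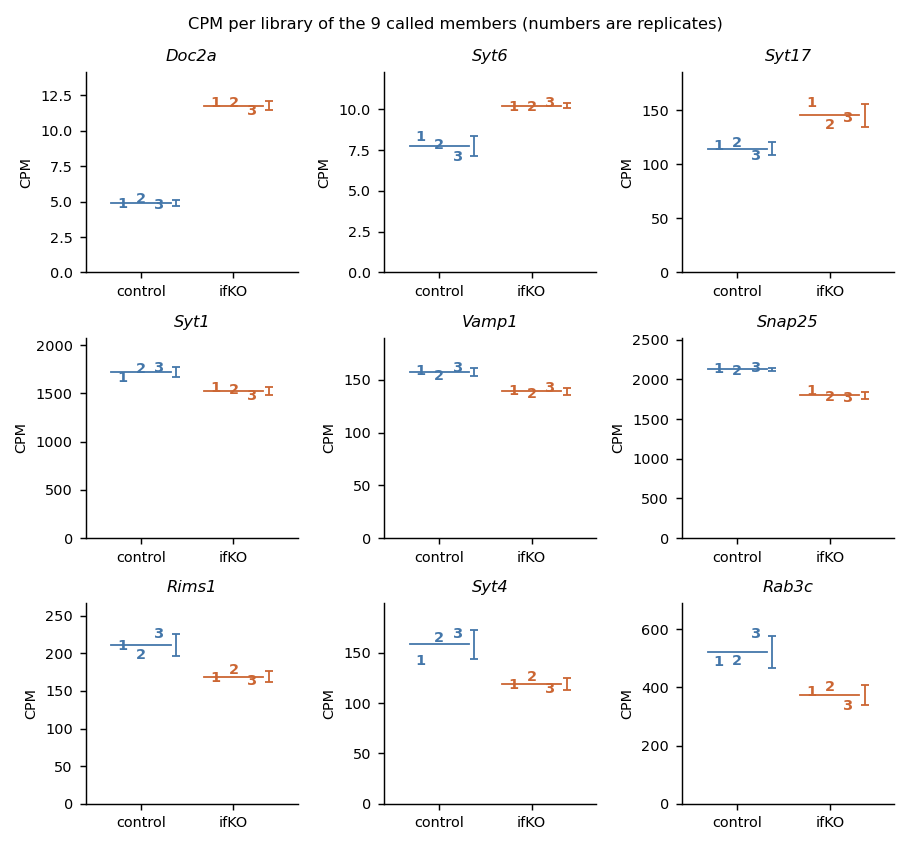
CPM of the 9 called genes in each library (y axes from 0), with the replicate number as the symbol, a line at the mean and a bar for the SD of 3 mice. For none of the 9 genes do control and ifKO libraries overlap, and the distance between the genotypes is widest, relative to the mean, for Doc2a.

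Of the 9 SNARE genes and regulators, Snap25 and Vamp1 fell and the others had no call. Snap25, a subunit of the fusion complex at the plasma membrane, was at 2131, 2109 and 2142 CPM in control replicates 1 to 3 and 1852, 1783 and 1769 CPM in Kdm1a-ifKO replicates 1 to 3. The genotypes did not overlap, and Snap25 fell with a log2FC of -0.24 (standard error 0.046, 95% interval -0.34 to -0.14, edgeR adjusted p = 0.00527), or to 0.847 of the control level. The call was lost with offsets for length and GC content (log2FC -0.071, adjusted p = 0.514) and, narrowly, without Kdm1a-ifKO replicate 3 (log2FC -0.23, adjusted p = 0.0551). Vamp1, the synaptobrevin that is the minor form in the forebrain, was at 158, 154 and 161 CPM in control replicates 1 to 3 and 139, 136 and 142 CPM in Kdm1a-ifKO replicates 1 to 3. It fell with a log2FC of -0.18 (standard error 0.049, 95% interval -0.29 to -0.074, edgeR adjusted p = 0.0382). This call was lost when any 1 library was left out, with adjusted p-values between 0.058 and 0.117. In all, 12 alternatives lost it, among them upper-quartile normalization (adjusted p = 0.0732) and the replicate number as a block (adjusted p = 0.0964). Vamp2, the main synaptobrevin, was at 1077, 990.5 and 979.5 CPM in control replicates 1 to 3 and 995, 986 and 1032 CPM in Kdm1a-ifKO replicates 1 to 3, with a log2FC of -0.016 and an interval of -0.13 to 0.10. Vamp2 made up 94.5% ± 0.292 (SD, n = 3) of the TPM of both synaptobrevins in controls and 95.1% ± 0.0312 (SD, n = 3) in Kdm1a-ifKOs. These shares rest on summed exon lengths of 10.2 kb for Vamp1 and 3.81 kb for Vamp2. For Nsf, the ATPase that recycles SNAREs, the interval was -0.13 to 0.087, for Cplx1 -0.11 to 0.10 and for the syntaxin Stx1a -0.084 to 0.23. Tomosyn (Stxbp5), an inhibitor of SNARE assembly, had a log2FC of -0.23 (edgeR adjusted p = 0.104). Its control replicate 3, at 155 CPM, stood above the other controls at 125 and 124 CPM.

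The highest value of this group was that of Cplx2, at 1690.5, 1706 and 1656 CPM in control replicates 1 to 3 and 2072, 1772 and 1940.4 CPM in Kdm1a-ifKO replicates 1 to 3. All Kdm1a-ifKO libraries were above the controls, and the log2FC of 0.20 (standard error 0.057, 95% interval 0.071 to 0.32, edgeR adjusted p = 0.0516) missed the threshold. DESeq2 (log2FC 0.19, adjusted p = 0.0235), upper-quartile normalization (log2FC 0.22, adjusted p = 0.0302) and the omission of Kdm1a-ifKO replicate 2 (log2FC 0.25, adjusted p = 0.014) called it higher. The lowest was that of Cplx3, a complexin of retinal ribbon synapses and of subplate neurons of the deep cortex, at 6.69, 7.25 and 6.29 CPM in control replicates 1 to 3 and 2.21, 9.04 and 3.49 CPM in Kdm1a-ifKO replicates 1 to 3. Kdm1a-ifKO replicates 1 and 3 lay below the controls and replicate 2 above them, and the fit gave a log2FC of -0.45 (standard error 0.529, 95% interval -1.82 to 0.91, edgeR adjusted p = 0.669). Without Kdm1a-ifKO replicate 2 Cplx3 was called lower (log2FC -1.24, adjusted p = 0.00153). Unc13c was likewise below the controls in Kdm1a-ifKO replicates 1 and 3, while replicate 2 lay within the control range. Ccn2, a marker of the same deep cortical layer that was singled out after its values were seen, was at 10.1, 10.8 and 11.0 CPM in control replicates 1 to 3 and 4.22, 12.7 and 5.65 CPM in Kdm1a-ifKO replicates 1 to 3. The 6 markers of deep cortex and subiculum summed to 243, 259 and 255 CPM in controls and 203, 275 and 211 CPM in Kdm1a-ifKO replicates 1 to 3. Among them Fn1 differed most in CPM between these Kdm1a-ifKO replicates, at 68.0, 122 and 76.0 CPM. Tbr1 and Nxph4 were also highest in replicate 2, whereas Fezf2 (43.0, 39.8 and 38.7 CPM) and Tle4 (52.7, 54.8 and 56.5 CPM) were not. The part of these markers in the values of Cplx3 and Unc13c was not tested.

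The active zone and priming genes leaned to lower values, with a median log2FC of -0.18 and 8 of 9 values negative, but Rims1 was the single call. The 9 genes summed to 1936, 1818 and 1911 CPM in controls and 1736, 1699.8 and 1664 CPM in Kdm1a-ifKOs, without overlap. Rims1 (ENSMUSG00000041670, chr1:22286251-22805994), the scaffold that ties vesicles and calcium channels to the release site, was at 210.0, 197 and 226 CPM in control replicates 1 to 3 and 167, 178 and 163 CPM in Kdm1a-ifKO replicates 1 to 3. The groups did not overlap, and Rims1 fell with a log2FC of -0.32 (standard error 0.06, 95% interval -0.45 to -0.19, edgeR adjusted p = 0.00465). Over the alternatives its log2FC ranged from -0.37 to -0.27. In the summed TPM of the 4 Rims genes, Rims1 held 48.0, 47.4 and 51.2% in controls and 46.0, 44.1 and 45.2% in Kdm1a-ifKOs, and Rims4, a short form with a single C2 domain, 26.3, 26.3 and 23.0% and 29.0, 29.0 and 29.6%. These shares did not overlap between genotypes, while those of Rims2 and Rims3 did, and none was tested. Rims4 had the highest value of the group, a log2FC of 0.013 (standard error 0.064, 95% interval -0.12 to 0.15, edgeR adjusted p = 0.929). Rims3 was at 84.9, 83.8 and 81.0 CPM in control replicates 1 to 3 and 64.8, 79.1 and 68.3 CPM in Kdm1a-ifKO replicates 1 to 3, and its log2FC of -0.23 just missed the threshold (edgeR adjusted p = 0.0566), which it passed with DESeq2 (log2FC -0.24, adjusted p = 0.0499). Unc13c, the Munc13 priming factor best known from cerebellar granule cells, had the lowest log2FC of all 44 genes, a log2FC of -0.87 (standard error 0.446, 95% interval -2.07 to 0.33, edgeR adjusted p = 0.33). Its values were 23.0, 15.3 and 28.2 CPM in control replicates 1 to 3 and 7.56, 18.99 and 9.76 CPM in Kdm1a-ifKO replicates 1 to 3, with wide spread in both genotypes. Without Kdm1a-ifKO replicate 2 Unc13c was not called (log2FC -1.36, adjusted p = 0.084), and without that library and control replicate 3 it was called lower (log2FC -1.14, adjusted p = 0.0349). Its paralog Unc13b was not called over all 6 mice (log2FC -0.18, edgeR adjusted p = 0.248) and was called lower without Kdm1a-ifKO replicate 2 (log2FC -0.28, adjusted p = 0.0382). Unc13a, the Munc13 of most glutamatergic synapses, had a log2FC of -0.15 (interval -0.26 to -0.03), and the scaffold Bsn one of -0.031 (interval -0.16 to 0.10). Pclo, the scaffold paired with Bsn, was at 291 CPM in control replicate 3, at 230.3 and 220.1 CPM in the other controls and at 208, 209 and 194 CPM in the Kdm1a-ifKOs (log2FC -0.28, edgeR adjusted p = 0.127).

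The 3 Rab3 GTPases, which dock vesicles through the Rims scaffolds, all had negative values and Rab3c was called. Their sum was 1052, 1072 and 1107 CPM in controls and 897, 912 and 843 CPM in Kdm1a-ifKOs, without overlap. Rab3c (ENSMUSG00000021700, chr13:110054187-110280996) was at 487, 492 and 584 CPM in control replicates 1 to 3 and 384, 403 and 337 CPM in Kdm1a-ifKO replicates 1 to 3. Every Kdm1a-ifKO library was below every control, and Rab3c fell with a log2FC of -0.48 (standard error 0.086, 95% interval -0.67 to -0.28, edgeR adjusted p = 0.00858), or to 0.718 of the control level, the largest called decrease of the 44 genes in this fit. Control replicate 3 was the highest library, and without it the log2FC was -0.38 (adjusted p = 0.00407). With offsets for length and GC content it was -0.30 (adjusted p = 0.000917), a smaller decrease than those of Rims1 and Syt4 in that fit (-0.34 and -0.31). Rab3a, the most abundant form, had a log2FC of -0.12 (standard error 0.051, 95% interval -0.23 to -0.0077, edgeR adjusted p = 0.175) and Rab3b a log2FC of -0.20 (standard error 0.08, 95% interval -0.38 to -0.032, edgeR adjusted p = 0.134). Rab3c held 14.2, 14.0 and 17.7% of the summed Rab3 TPM in controls and 12.5, 13.2 and 11.3% in Kdm1a-ifKOs. Dnm1 was the only listed gene of vesicle retrieval, at 1533, 1547 and 1414 CPM in control replicates 1 to 3 and 1499, 1409 and 1443 CPM in Kdm1a-ifKO replicates 1 to 3, with a log2FC of -0.046 (standard error 0.052, 95% interval -0.16 to 0.065, edgeR adjusted p = 0.632).

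**Figure D4:**
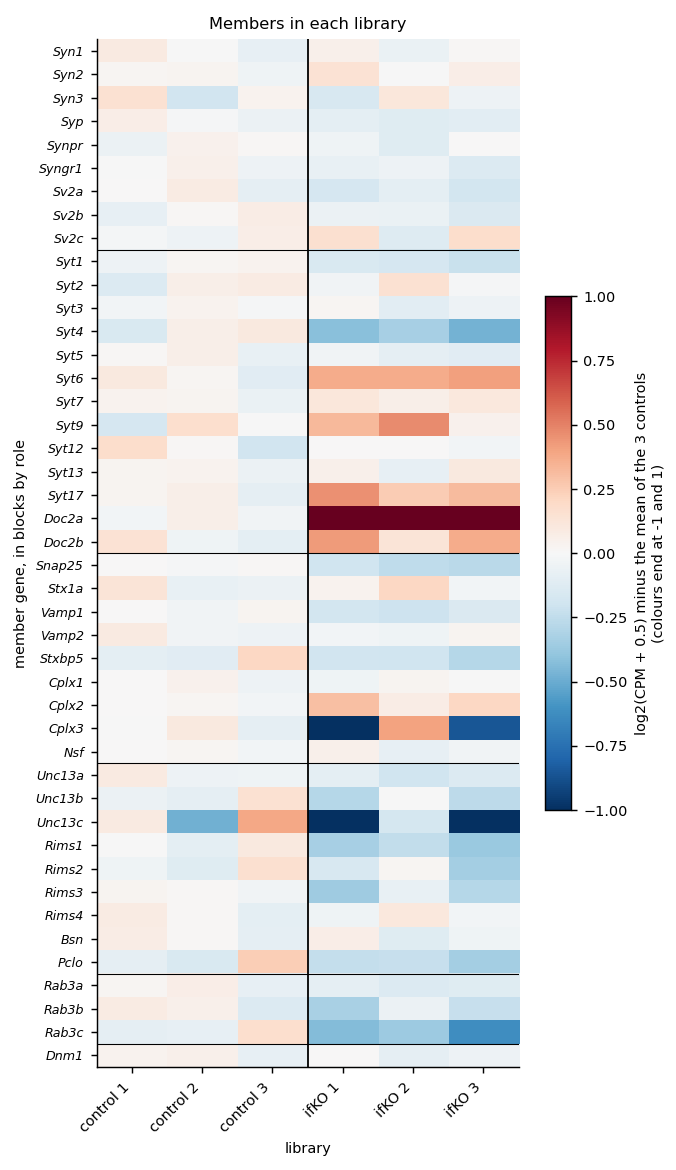
Each of the 44 genes (rows, in blocks by role) in each of the 6 libraries (columns), as log2(CPM + 0.5) minus the mean of the 3 controls, with red above and blue below that mean. Doc2a is red in the 3 ifKO columns, the called decreases are blue in all of them, and Cplx3 and Unc13c are deepest blue in ifKO 1 and ifKO 3.

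Of the 60 other genes of the release pathway, listed by function, 57 were tested. Among them 2 were higher and 2 lower, beside 6.04% and 2.82% of all tested genes, and the median log2FC was -0.071. Baiap3 (ENSMUSG00000047507, chr17:25242659-25256364), a Munc13-related C2-domain protein of dense-core vesicle traffic, was at 9.83, 13.5 and 8.28 CPM in control replicates 1 to 3 and 43.1, 38.7 and 36.9 CPM in Kdm1a-ifKO replicates 1 to 3. It rose 3.75-fold, without overlap, with a log2FC of 1.91 (standard error 0.153, 95% interval 1.55 to 2.26, edgeR adjusted p = 0.000138). Baiap3 overlaps exons of Tsr3 on the opposite strand, which was at 14.2, 12.7 and 11.8 CPM in controls and 12.6, 13.0 and 13.4 CPM in Kdm1a-ifKOs. Vamp8, a SNARE of endosomes and secretory granules, was at 8.11, 7.09 and 7.79 CPM in control replicates 1 to 3 and 9.26, 10.8 and 10.4 CPM in Kdm1a-ifKO replicates 1 to 3, and rose with a log2FC of 0.41 (edgeR adjusted p = 0.0434). Synj1, the phosphatase that uncoats retrieved vesicles, was at 582, 609 and 641 CPM in control replicates 1 to 3 and 524, 531 and 484 CPM in Kdm1a-ifKO replicates 1 to 3, and fell with a log2FC of -0.25 (edgeR adjusted p = 0.0125). Napg, a SNAP protein that recruits Nsf, fell with a log2FC of -0.19 (edgeR adjusted p = 0.0456). Synj1 lost its call without Kdm1a-ifKO replicate 3 (adjusted p = 0.0858). Vamp8 lost its call when any 1 library was left out (adjusted p up to 0.146). Napg lost its call when any library but control replicate 1 was left out (adjusted p up to 0.191). With offsets for length and GC content Napg had a log2FC of -0.092 (adjusted p = 0.284) and Vamp8 of 0.30 (adjusted p = 0.0949), and Vamp8 was not called with DESeq2 (adjusted p = 0.108).

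**Figure D5:**
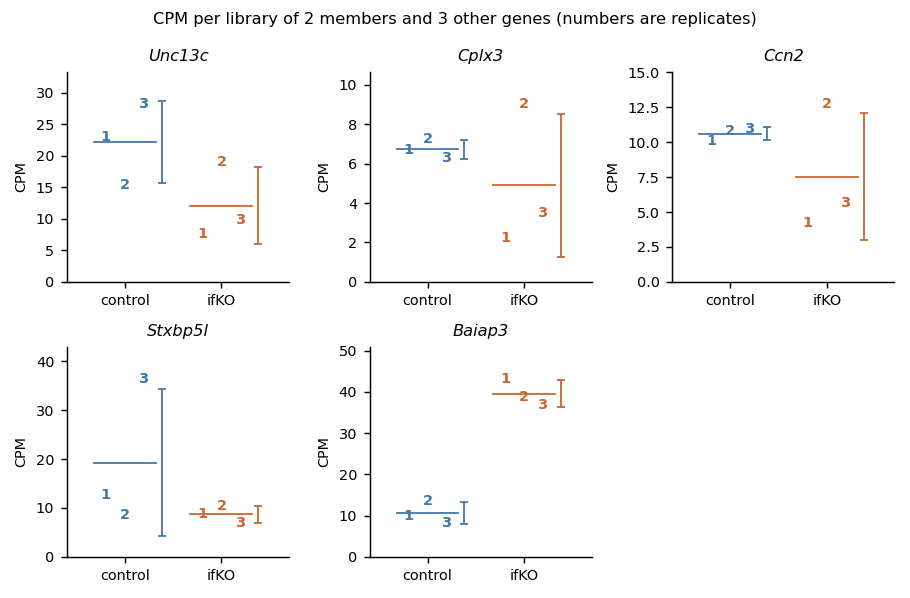
CPM per library of Unc13c, Cplx3, Ccn2, Stxbp5l and Baiap3 (y axes from 0), with the replicate number as the symbol, a line at the mean and a bar for the SD of 3 mice. Baiap3 separates the genotypes, whereas ifKO replicate 2 stands above ifKO replicates 1 and 3 for Unc13c, Cplx3 and Ccn2, and control replicate 3 stands above all other libraries for Stxbp5l.

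Markers of neurons and of the other cells of the tissue were read in the same fit. Of 6 excitatory neuron markers, Neurod6 fell (log2FC -0.36, edgeR adjusted p = 0.00419) and 5 had no call, with a median of -0.049. Among 6 general neuronal markers, with a median of -0.11, only the neurofilament gene Nefl was called (log2FC -0.26, edgeR adjusted p = 0.00475). In 3 of the 6 all Kdm1a-ifKO libraries lay below all controls, and in 1, Rbfox3 (log2FC 0.11), they lay above. Summed over the list, Kdm1a-ifKO libraries reached 4373 to 4645 CPM, below the control range of 4766 to 5452 CPM. The largest part of this sum was Snhg11 (control mean 2859 CPM), for which the genotypes overlapped. Map2 stood at 1365 CPM in control replicate 3, against 1006 and 960 CPM in control replicates 1 and 2. The neuropeptide genes Vip and Npy were the called genes of the 8 interneuron markers (log2FC -0.46 and -0.31, edgeR adjusted p = 0.0122 and 0.0106). The list had a median of -0.13. Gad2 (log2FC -0.16, edgeR adjusted p = 0.0599) and Pvalb (log2FC -0.23, edgeR adjusted p = 0.0529), not called, lay lower in all Kdm1a-ifKO libraries than in any control. Lhx6 (log2FC 0.23) and Sst (log2FC 0.069), also not called, lay higher in all Kdm1a-ifKO libraries than in any control. All 6 microglia markers had positive values, 3 of them (Cx3cr1, Csf1r and Tmem119) called higher, and their sum was 262 to 289 CPM in controls and 303 to 385 CPM in Kdm1a-ifKOs, without overlap. All 6 astrocyte markers were likewise positive, 1 of them (Slc1a3) called, with sums of 4509.6 to 5133 CPM in controls and 5015 to 5259.6 CPM in Kdm1a-ifKOs that overlapped. One of 5 markers of dentate granule cells, C1ql2, and 1 of 5 of thalamus, Prkcd, were also higher (log2FC 0.55 and 0.57, edgeR adjusted p = 0.0264 and 0.00186). The medians of these lists were 0.26 and -0.015, with values down to -0.055 for Prox1 and -0.15 for Ramp3. None of the tested markers of CA1, CA3, deep cortex, striatum, oligodendrocytes, endothelial cells or choroid plexus was called. Kcnj13, of the choroid plexus list, was not tested. That list was uneven between mice, with sums of 37.3, 13.8 and 9.73 CPM in control replicates 1 to 3. In Kdm1a-ifKO replicates 1 to 3 the sums were 4.99, 8.48 and 12.4 CPM. The part of cell makeup in the values of the release genes was not tested.

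CTCF ChIA-PET was made from hippocampal excitatory neuron nuclei labelled wild type and male. By the study's methods such nuclei were sorted from tamoxifen-treated Camk2a-creERT2 x CAG-Sun1/sfGFP reporter mice of 12 weeks, which carry the recombinase, unlike the RNA-seq controls. This single library, with 27786 loops of at least 3 paired-end tags (PETs), showed a loop anchor within 2.5 kb of the gene start for 10 of the 44 genes. The share over tested genes with coordinates was 22.6%, close to the 22.7% of the members. The 10 genes were Syn3, Syngr1, Syt5, Syt7, Syt17, Vamp2, Cplx2, Unc13b, Rab3a and Dnm1, so that Syt17 was the only called gene among them. Its anchors joined regions with no tested gene start within the same distance, by loops of 6, 4 and 13 PETs. The strongest loop of a member, with 72 PETs, left the start of Cplx2 and ended 124 kb away, again at no tested gene start. Vamp2 was joined to Tmem107 by 39 PETs (log2FC of Tmem107 0.22, edgeR adjusted p = 0.375). Rab3a had 11 loops, the strongest of 39 PETs to Pde4c (log2FC 0.48, edgeR adjusted p = 0.0741), and loops of 4 and 3 PETs to Ssbp4, the single called gene among the partners (log2FC 0.34, edgeR adjusted p = 0.00432). No such anchor lay at the starts of Doc2a, Snap25, Syt1, Syt4, Syt6, Rims1, Rab3c or Vamp1. Loops of Kdm1a-ifKO neurons were not analysed here, so these are positions in neurons with intact Kdm1a, without a comparison of genotypes.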

How the data were processed

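RNA-seq counts were analysed for 3 control and 3 Kdm1a-ifKO hippocampi, 1 mouse each. The authors trimmed single-end poly-A reads with cutadapt 1.18, aligned them to mm10 (GRCm38) with HISAT2 2.1.0, required a mapping quality above 30 and a nuclear chromosome, and obtained counts for Ensembl genes from HTSeq 0.11.1. The deposited values are raw counts. The authors also deposited counts of PETs per CTCF loop, made with ChIA-PIPE from 1 library of wild-type reporter mice, after calling and filtering of loops. Other assays of the series were not used here. Genes were named from GENCODE M21, in which 48435 of 48795 IDs (99.3%) were found, and summed exon lengths for TPM were taken from it.

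Expression was tested on all genes with edgeR 4.0.16 in R 4.3.3 (filterByExpr, TMM, robust quasi-likelihood F test, genotype only), two-sided, with Benjamini-Hochberg adjustment over 16799 genes. The study used DESeq2, which served here as an alternative (version 1.42.0). Standard errors are the log2FC over the root of F, and intervals are 95% t intervals. An exact permutation test of 3 mice against 3 cannot fall below p = 0.1 and was not used. The fit was checked on simulated counts drawn from its own count model, which cannot show how libraries that stand apart affect it. The other tables were made in Python 3.11.15.

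The genes, the lists and the tests were chosen with earlier results of these data known. By rule, full values were given for members with an adjusted p under 0.05 and the highest and lowest log2FC of each role, and, of the other lists, called genes were named. Further members (such as Syn1, Syp, Vamp2, Doc2b, Rims3 and Rab3b), uncalled markers and Stxbp5l were singled out after their values were seen. Of the genes that overlap a named gene or share its loop, some are named.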

Additional observations from a re-analysis of the deposited data

How the results depend on the processing

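The alternatives were DESeq2, edgeR with the size factors of DESeq2 or with upper quartiles, all genes without a count filter or those with at least 10 summed counts, offsets for gene length and GC content, the replicate number as a block, each library left out, and, chosen after seeing the data, the omission of both libraries that stood apart. The Kdm1a decrease kept its call in all 15 (log2FC -1.09 to -1.04), and between 37 and 40 members had an interval within 1.5-fold. Members called lower were 15 with the length and GC offsets (1212 of 16799 tested genes) and 10 without a filter (1090 of 28781). They were 11 without both libraries (560 of 16851) and 3 to 8 with 1 library left out. The fit with all libraries and no offsets called 473 of 16799 tested genes lower. With 1 library left out, 137 to 584 tested genes were lower. The lowest count of members, 3, was reached without Kdm1a-ifKO replicate 3 (137 of 17099) and the 8 without Kdm1a-ifKO replicate 2 (413 of 17076). Members called higher were 5 without a filter (1447 of 28781) and 5 with upper-quartile normalization (1213 of 16799). With 1 library left out they were 2 to 4 (646 to 876 tested genes). The median log2FC of the members was -0.15 with the offsets, -0.089 without both libraries, and -0.081 to -0.048 with 1 library left out. Other release genes called lower were 4 with DESeq2 (527 of 16412 tested genes) and 1 with at least 10 counts (481 of 20934). They were 9 with the offsets (1212 of 16799) and 5 without a filter (1090 of 28781). Upper-quartile normalization gave 1 (360 of 16799), the omission of both libraries 4 (560 of 16851), and that of 1 library 1 to 5 (137 to 584). Those called higher were 4 without a filter (1447 of 28781) and 1 without both libraries (1039 of 16851). With 1 library left out they were 1 to 2 (646 to 876 tested genes). A loop anchor lay within 10 kb of the start of 18 members (36.9% of tested genes), and loops of at least 5 or 10 PETs left 9 and 5 members (17.6% and 11.0% of tested genes). The cause of these shifts was not tested.

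Libraries with the same replicate number did not deviate together (Pearson's r across genes of -0.032, -0.089 and -0.14), and no library correlated best with its own number, so the numbers were not read as pairs. With the replicate block 3 members were higher and 4 lower, and 1 other release gene was called in each direction. Over all 16799 tested genes 797 were higher and 249 lower in that fit. With the block and the offsets together 14 members were lower at a median of -0.15, and 8 other release genes were lower. There 1013 of 16799 tested genes were lower, and the median of all tested genes was -0.036.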

Other observations

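Stxbp5l, a relative of tomosyn that was singled out after its values were seen, was at 12.7, 8.61 and 36.4 CPM in control replicates 1 to 3 and 8.79, 10.3 and 6.93 CPM in Kdm1a-ifKO replicates 1 to 3 (log2FC -1.15, edgeR adjusted p = 0.391). Control replicate 3 lay above the 5 other libraries.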
